A study of Homo sapiens with 23 samples.

Results

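Glypicans are heparan sulfate proteoglycans that a glycosylphosphatidylinositol (GPI) lipid anchor holds on the outer face of the cell membrane. GPC4, GPC6, GPC1, GPC2 and GPC3 were the 5 members of the family with a row among the 9497 genes of the expression tables of thalamus organoids (ThOs). They were taken by name, and the family was chosen by the GPC4 values, which were higher after c-JUN re-expression than in c-JUN knockout ThOs at day 25. The values of that comparison are therefore given as a description, with no test. GPC5 had no row in the tables.

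ThOs are 3-dimensional cultures induced from H1, an established human embryonic stem cell (ESC) line, towards the thalamus of the diencephalon. Libraries labelled WT came from unedited H1 cells, and those labelled c-Jun Knockout (KO) from H1 cells edited with CRISPR/Cas9 at c-JUN, which encodes a subunit of the transcription factor AP-1. Libraries titled H1cJunKO+cJun (OE below) carried the same knockout genotype label and, per the methods of the study, a doxycycline-inducible c-JUN. Each of these 3 genotypes was collected at day 25 and at day 30 with 2 libraries per group, 12 in all, and each library was made from 3 pooled organoids. The study made 2 knockout lines, and the labels do not say which line a KO or OE library came from, so clone and genotype cannot be told apart. Nothing says that the libraries of a group came from separate cultures, and the p-values then measure only the spread between these libraries, which may be technical.

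The targeted gene did not follow the labels. JUN values were 139 and 153 in the WT libraries at day 25, 353 and 196 in the libraries labelled KO and 224 and 212 in the OE libraries. At day 30 they were 128 and 162 in WT, 222 and 248 in KO and 362 and 202 in OE. All 4 KO libraries lay above all 4 WT libraries (5.88% of all genes had no overlap in either direction). The study reported loss of c-JUN protein in its knockout lines by western blot. By RT-qPCR it reported no c-JUN mRNA during induction of neural progenitor cells and cerebral organoids. From ATAC-seq of ThOs at day 25, it reported highly accessible chromatin at c-JUN in WT and OE and less in KO. A western blot in the study showed c-JUN protein in the knockout lines after doxycycline. JUN RNA in these ThO libraries did not bear out the labels, and every direction below is one between libraries labelled WT, KO and OE. The values are the deposited normalized expression values, whole numbers with the same lowest value (11), median (106) and highest value (9910) in all 12 libraries, and they hold no sequencing depth. The rank correlation (Spearman) between replicates was 0.821 (day 25) and 0.769 (day 30) in the KO groups, against 0.936 to 0.959 elsewhere. The least typical library was KO day 30 replicate 2, whose median correlation to the remaining libraries was 0.745. The neuron markers were all listed (12 of 12), 4 of 10 thalamus markers had a row (GBX2, LHX2 and OLIG3 had none), and none of the 6 telencephalon or the 6 pluripotency markers did.

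The long sulfated sugar chains of a glypican bind Wnt, FGF, BMP and Hedgehog proteins and set how much of them reaches their receptors. In the developing brain, GPC4 is found in neural progenitors, GPC2 on growing axons, and GPC4 and GPC6 released by astrocytes promote the formation of excitatory synapses. GPC3, a regulator of Hedgehog and Wnt signalling, is the gene of an X-linked overgrowth syndrome.

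GPC4 (ENSG00000076716) was given at chrX:133300103-133415489 on the minus strand and GPC3 (ENSG00000147257) at chrX:133535745-133987100 on the same strand, 120 kb apart in tandem. GPC6 (ENSG00000183098) lay at chr13:93226807-94408020 on the plus strand. GPC2 (ENSG00000213420) lay at chr7:100169606-100177381 on the minus strand and GPC1 (ENSG00000063660) at chr2:240435663-240468076 on the plus strand. These positions are those of the tables and overlap the same genes in RefSeq GRCh38.p14. GPC4 and GPC6 are shown because their values went opposite ways at day 25. Both sequences are the 250 bases before the start site used by the RefSeq promoter table, 5′ to 3′ on the strand of the gene, chrX:133415490-133415739 (minus) for GPC4 and chr13:93226557-93226806 (plus) for GPC6. The GPC6 start site is the start given in the expression tables and lies inside the RefSeq gene, which begins at 93216529. Capitals mark the matches to the 6 motifs searched.
GPC4: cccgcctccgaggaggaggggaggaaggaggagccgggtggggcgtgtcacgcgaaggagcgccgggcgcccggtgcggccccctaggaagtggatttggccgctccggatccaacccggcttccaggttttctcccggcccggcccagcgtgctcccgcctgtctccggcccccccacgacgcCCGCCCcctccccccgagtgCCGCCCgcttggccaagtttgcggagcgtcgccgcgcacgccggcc
GPC6: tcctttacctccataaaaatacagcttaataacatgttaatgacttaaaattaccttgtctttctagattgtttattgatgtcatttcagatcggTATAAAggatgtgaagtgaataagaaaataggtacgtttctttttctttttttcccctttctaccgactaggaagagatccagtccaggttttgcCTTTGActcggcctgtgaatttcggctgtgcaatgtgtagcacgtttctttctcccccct
The capitals in GPC4 are 2 GC boxes (GGGCGG, matched on the opposite strand) that begin 66 and 46 bases before the start site. In GPC6 they are a TATA box (TATAAA), which begins 155 bases before the start site, and the TCF/LEF core CTTTGA, which begins 60 bases before it. The GPC4 window was 76.0% G and C and the GPC6 window 37.6%, and the median of all 35116 promoters in the RefSeq table was 58.0%. Over the full window of 300 bases, 250 before to 50 after the start site, and over both strands, GC boxes stood in 45.0% of all promoters, the TATA box in 11.5% and the TCF/LEF core in 12.9%. GPC1 had 4 GC boxes and GPC2 had 3, with 2 CCAAT boxes (CCAAT, in 34.6% of promoters) in GPC2. The AP-1 site TGANTCA, in 7.71% of all promoters, and the CRE TGACGTCA, in 1.85%, had no match in the windows of GPC4, GPC6, GPC1 or GPC2, which says only that these letters are not in these windows. No 2 of the matches in the printed windows overlap.

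GPC4 was lowest in the libraries labelled KO at day 25 and highest in the OE libraries of that day. Its values at day 25 were 172 and 146 in WT, 38 and 51 in KO and 359 and 227 in OE. The 3 groups did not overlap, and both KO values were below those of the other 10 libraries. Of all genes, 40.6% did not overlap between KO and WT at day 25, 46.9% between OE and KO and 39.4% between OE and WT. The group means of GPC4 were 159 ± 18.4 (SD, n = 2) in WT, 44.5 ± 9.19 in KO and 293 ± 93.3 in OE. The log2 fold changes were -1.82 for KO against WT and 2.67 (6.36-fold) for OE against KO, which ranked 4 from the highest of 9497 genes. For OE against WT the log2 fold change was 0.85. These comparisons hold the libraries that chose GPC4, and its passing the call threshold for OE against KO is what the choice fixed. Over all genes, 0.274% (26) were called in that comparison, at a Benjamini-Hochberg adjusted p under 0.05 in limma and a change of at least 2-fold.

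At day 30 the spread of GPC4 among the groups was narrower. Its values were 92 and 87 in WT, 99 and 67 in KO and 104 and 153 in OE. The KO libraries overlapped the WT libraries, and the OE libraries lay above both (37.2% of all genes did not overlap between OE and KO and 42.8% between OE and WT). The difference between KO and WT was -0.13 on the log2 scale (95% interval -0.84 to 0.57, limma adjusted p = 0.903). OE exceeded KO by 0.62 (SE 0.323, interval -0.083 to 1.33, limma adjusted p = 0.480), and WT by 0.49 (interval -0.22 to 1.20, adjusted p = 1). None of these differences passed the test. Without KO day 30 replicate 2, the library that stood apart, OE against KO was 0.35, and KO against WT turned to 0.14.

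Over time GPC4 went in opposite directions in the genotypes. In WT the values were 172 and 146 at day 25 and 92 and 87 at day 30, with no overlap (41.3% of all genes) and a log2 difference of -0.82 (SE 0.323, unadjusted p = 0.0272), which did not pass the limma test after adjustment over all genes (adjusted p = 0.9997). In KO the libraries of day 30 were above those of day 25 (0.87 on the log2 scale), and in OE they were below (-1.17). Both are given without a test, since they hold the libraries that chose the gene, and their directions can follow from that choice alone. Ordered by mean, the 6 groups ran OE day 25, WT day 25, OE day 30, WT day 30, KO day 30 and KO day 25. WT day 25 overlapped OE day 30 (146 to 172 against 104 to 153), and WT day 30 overlapped KO day 30, while the other neighbours in this order did not overlap.

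**Figure D1:**
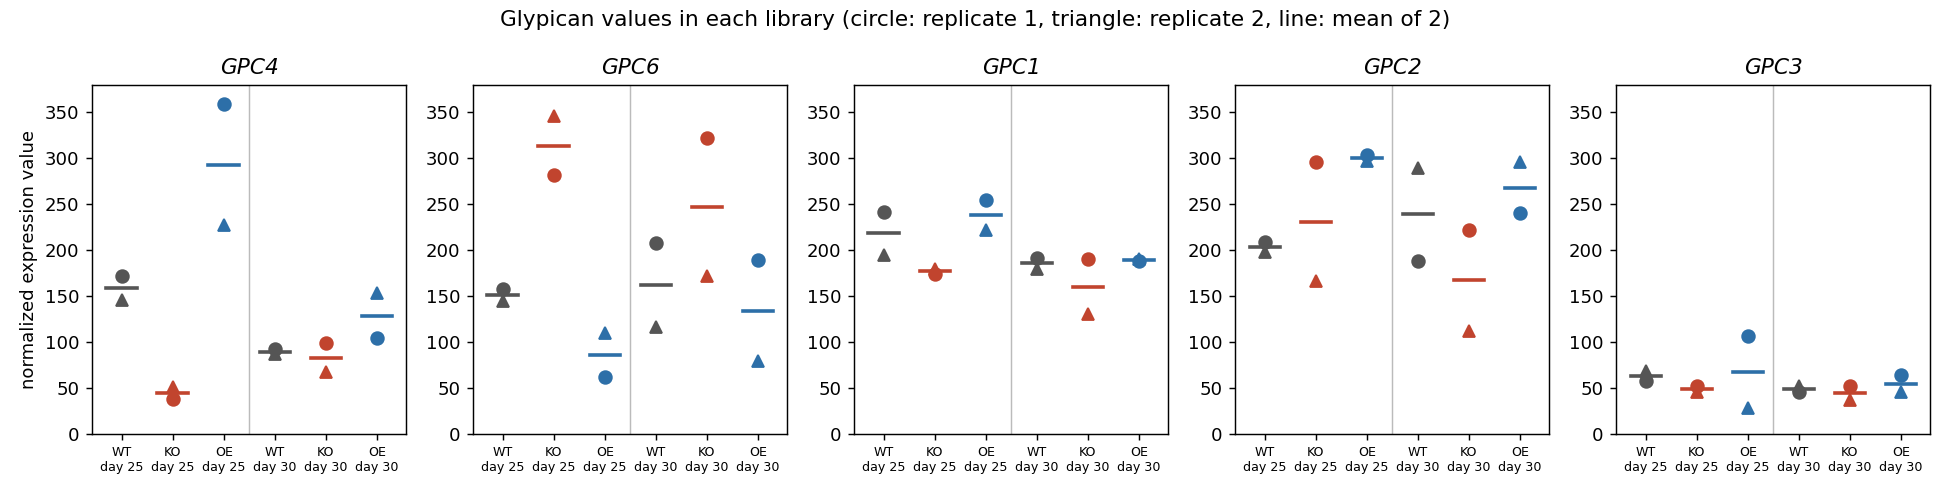
Normalized expression values of the 5 glypicans (y axis, linear from 0) in the 12 libraries, by genotype label and day (x axis). Circles are replicate 1, triangles replicate 2 and lines the mean of 2 libraries; GPC4 at day 25 runs from 38 and 51 in KO to 359 and 227 in OE, and GPC6 from 62 and 110 in OE to 282 and 346 in KO.

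GPC6, which is close to GPC4 in sequence and shares its synapse-promoting activity, had the reverse order. Its values at day 25 were 158 and 145 in WT, 282 and 346 in KO and 62 and 110 in OE, with no overlap between the groups (46.9% of all genes did not overlap between OE and KO, 40.6% between KO and WT and 39.4% between OE and WT). The libraries labelled KO exceeded WT by 1.04 on the log2 scale (2.06-fold, SE 0.457, 95% interval 0.037 to 2.04), with an unadjusted p of 0.0433 that did not pass in limma after adjustment over all genes (adjusted p = 0.353). OE was lower than KO by a log2 difference of -1.91, a value of the comparison that chose the family. The difference between OE and WT was -0.87 (interval -1.87 to 0.14, limma adjusted p = 1).

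At day 30 the replicates of GPC6 were far apart in every genotype. They were 208 and 116 in WT, 322 and 172 in KO and 189 and 79 in OE, so that each group overlapped the others. The differences kept their signs, at 0.60 for KO against WT (interval -0.41 to 1.60, limma adjusted p = 0.684) and -0.94 for OE against KO (interval -1.94 to 0.064, adjusted p = 0.475). They were 1.05 and -1.39 with KO day 30 replicate 2 left out, and 0.15 and -0.49 with replicate 1 of that group left out. Over both days, the 4 KO libraries (172 to 346) and the 4 WT libraries (116 to 208) differed by 0.82 on the log2 scale (two-sided exact permutation test, p = 0.0571, adjusted p = 0.229 over 8 such tests). The smallest p that 4 against 4 can give is 0.0286, with labels exchanged freely across the 2 days.

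Within a library, the ratio of the GPC4 value to the GPC6 value was 1.09 and 1.01 in WT at day 25, 0.135 and 0.147 in KO and 5.79 and 2.06 in OE. At day 30 it was 0.442 and 0.750 in WT, 0.307 and 0.390 in KO and 0.550 and 1.94 in OE. The tables do not say whether values are scaled to gene length, so the ratio serves to compare libraries and not the abundance of GPC4 with that of GPC6. Across the 12 libraries the log2 values of GPC4 and GPC6 had a Pearson r of -0.79 (Spearman rho -0.74). Within day 25 r was -0.95 and within day 30 it was -0.46, over 6 libraries each. Leaving out any 1 library gave -0.84 to -0.69. These points share genotype and day, hold the libraries that chose GPC4 and are a description.

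**Figure D2:**
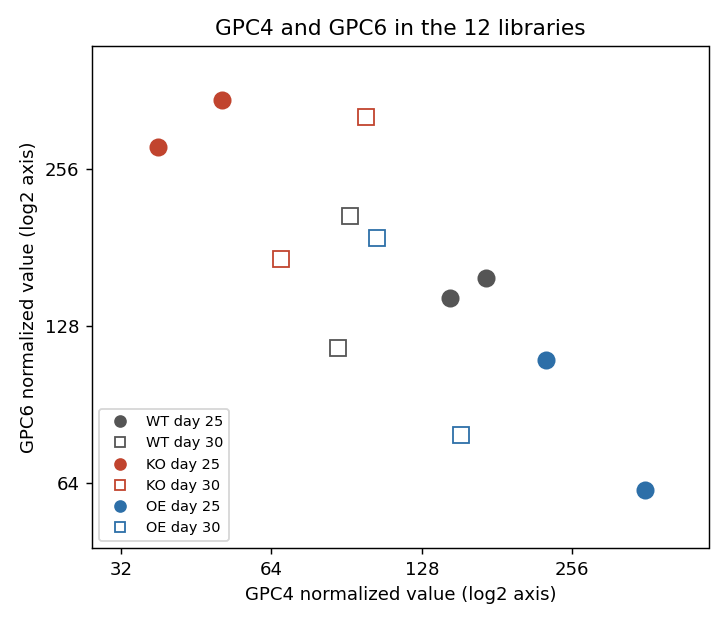
GPC6 value (y axis) against GPC4 value (x axis) in each of the 12 libraries, both on log2 axes; filled circles are day 25, open squares day 30, and colour gives the genotype label. The 2 KO libraries of day 25 lie at the upper left (GPC4 of 38 and 51, GPC6 of 282 and 346) and the 2 OE libraries of day 25 at the lower right.

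GPC1, an abundant glypican of the nervous system that takes part in FGF signalling, varied little. Its values were 242 and 195 in WT, 174 and 180 in KO and 255 and 222 in OE at day 25. At day 30 they were 192 and 180 in WT, 190 and 130 in KO and 188 and 190 in OE. KO lay below WT without overlap at day 25, as 40.6% of all genes had no overlap there in either direction. The log2 difference was -0.29 (interval -0.81 to 0.22, limma adjusted p = 0.620), and the groups overlapped at day 30. Over both days the KO and WT libraries differed by -0.27 (two-sided exact permutation test, p = 0.0857, adjusted p = 0.229). GPC1 ordered the libraries much as GPC4 did, with r = 0.76 (rho 0.89) over 12 libraries, which include those that chose GPC4. Within day 30 r was 0.71.

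GPC2, a glypican found mainly on developing neurons, was 209 and 198 in WT, 296 and 166 in KO and 304 and 297 in OE at day 25. At day 30 its values were 188 and 290 in WT, 222 and 112 in KO and 240 and 296 in OE. The KO replicates were far apart on both days. At day 30 the OE libraries lay above the KO libraries (37.2% of all genes did not overlap) by 0.75 on the log2 scale (SE 0.357, interval -0.031 to 1.54), which did not pass in limma (adjusted p = 0.468). This value rested on the library kept for KO, at 1.24 (limma adjusted p = 0.0376) if replicate 1 of the KO group was left out and 0.26 if replicate 2 was. The fit without replicate 1 keeps for KO only the least typical library, which is assumed to vary like the other groups, and 15.2% of all genes (1441) were called in it. Over both days OE and WT differed by 0.38 (240 to 304 against 188 to 290, two-sided exact permutation test, p = 0.0571, adjusted p = 0.229).

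GPC3 showed little difference between the group means. Its values were 58 and 68 in WT, 52 and 45 in KO and 106 and 28 in OE at day 25, and 46 and 52, 52 and 37, and 64 and 45 at day 30. The OE replicates at day 25 held both the highest and the lowest of the 12 values. Although GPC3 lies next to GPC4, its log2 difference between OE and KO at day 25 was 0.17, against 2.67 for GPC4, and between KO and WT -0.37, against -1.82. MBNL3, an RNA-binding splicing factor and the nearest listed gene on the other side of GPC4 (810 kb), differed by 0.015 and -0.31 in these comparisons. The correlation of GPC4 with GPC3 was 0.34 over the 12 libraries and ran from -0.12 to 0.72 on leaving out any 1 of them.

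Across the comparisons that did not choose the family, none of 36 tests on members was called in limma. Of the 36, 2 had an unadjusted p under 0.05, GPC6 for KO against WT at day 25 (13.4% of all genes) and GPC4 for WT between the days (4.30%). The shares of all genes for day 30 against day 25 were 13.2% in KO and 1.90% in OE. Over all 9497 genes, 0.0105% were called for KO against WT at day 25, 0.0842% for OE against KO at day 30, 0.0316% for OE against WT at day 30, and 0% for KO against WT at day 30, for OE against WT at day 25 and for day 30 against day 25 in each genotype. The libraries of the groups did not overlap in 3 of 4 tests at day 25 between KO and WT (40.6% of all genes) and in 0 of 5 at day 30 (33.9%). The counts were 2 of 5 for OE against KO at day 30 (37.2%), 2 of 4 for OE against WT at day 25 (39.4%) and 1 of 5 at day 30 (42.8%). Between the days they were 3 of 5 in WT (41.3%), 0 of 4 in KO (29.3%) and 2 of 4 in OE (37.7%). GPC4 for day 30 against day 25 in OE, which was not tested, is the member that an unadjusted p under 0.05 with a 2-fold change would take there (0.727% of all genes). Over both days, GPC4 and GPC6 passed the call threshold for OE against KO (2.22% of all genes), which holds the comparison that chose the family. Of the 4 members tested over both days besides GPC4, 0 were called in limma for KO against WT (0.0211%), where 1 had an unadjusted p under 0.05 (15.2%), and 0 for OE against WT (0.158%), where 0 did (8.21%).

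**Figure D3:**
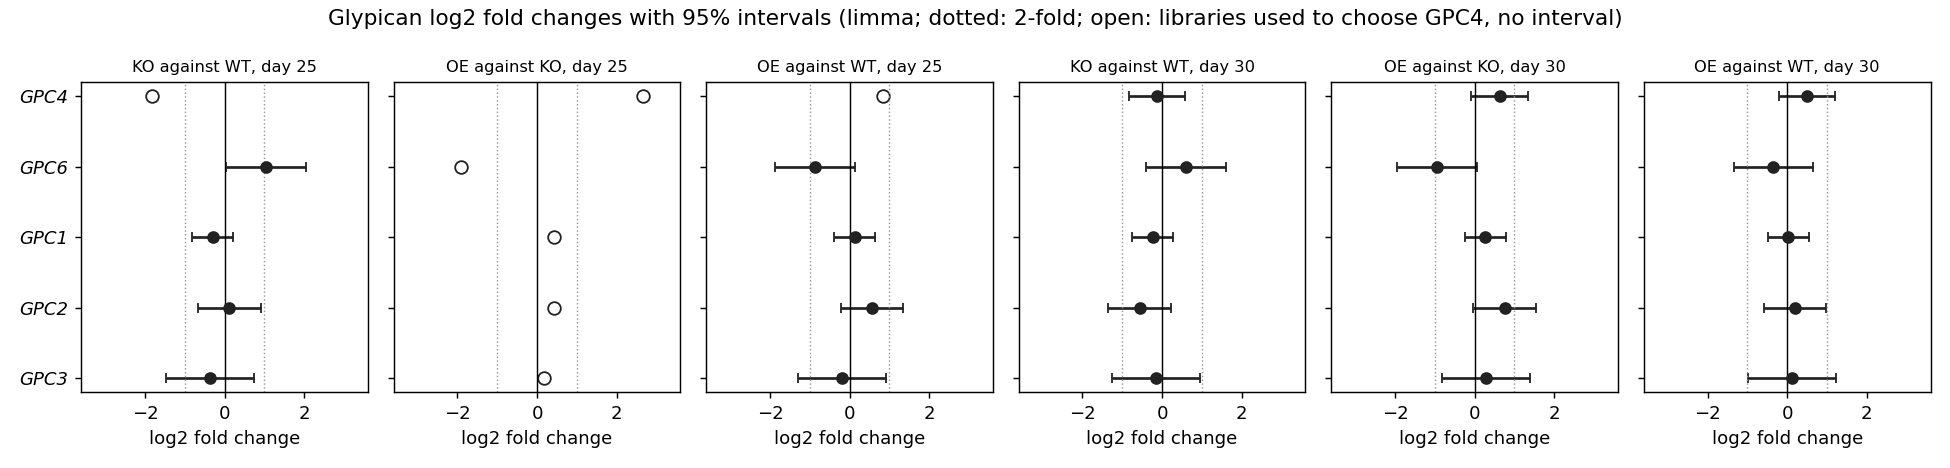
Log2 fold changes (x axis) of the 5 glypicans (y axis) in 6 comparisons, as points with 95% intervals from limma, and dotted lines at 2-fold. Open circles without an interval belong to comparisons with the libraries that chose GPC4; for OE against KO at day 25 GPC4 lies at 2.67 and GPC6 at -1.91, and at day 30 they lie at 0.62 and -0.94.

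The sugar chains that make a glypican active are built on the core protein by the same enzymes in all heparan sulfate proteoglycans. Of the 48 genes on the lists for other core proteins, chain assembly and chain modification, 31 had a row. For OE against KO at day 25, 1 of the 31 was called (0.274% of all genes), HS6ST1, which adds sulfate at the 6-O position of the chain. HS6ST1 was 149 and 166 in KO and 445 and 442 in OE at day 25, with 249 and 328 in WT. OE exceeded KO by 1.49 on the log2 scale (SE 0.231, limma adjusted p = 0.0439). The call was lost with a replicate block, with library weights, without the variance trend, with only the 4 libraries compared in the fit, and without either OE library. At day 30 HS6ST1 was 276 and 206 in KO and 536 and 397 in OE, a difference of 0.95 that was not called (limma adjusted p = 0.261). Over both days 2 of the 31 were called for OE against KO (2.22% of all genes), HS6ST1 (1.22, limma adjusted p = 0.00745) and SDC2 (-1.01, adjusted p = 0.0212), in a comparison that also holds the day 25 libraries. Both calls were lost with only the libraries compared in the fit. SDC2 stood at the 2-fold limit and was also lost with a pseudocount of 5, with library weights and without any 1 of 5 libraries.

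In the other 5 single-day comparisons between genotypes 0 of the 31 genes were called in limma. An unadjusted p under 0.05 was found for 5 of 31 for KO against WT at day 25 (13.4% of all genes) and 1 of 31 at day 30 (7.36%). The count was 2 of 31 for OE against KO at day 30 (10.9%), and 4 and 5 of 31 for OE against WT at day 25 (4.18%) and day 30 (4.07%). For OE against KO at day 25 it was 5 of 31 (17.8%). With a 2-fold change required as well, 2 and 1 of 31 passed for KO against WT at day 25 (5.31%) and day 30 (2.94%), 3 and 1 for OE against KO (8.57% and 5.38%), and 1 and 0 for OE against WT (1.57% and 1.44%). The median log2 fold change of the 31 was -0.23 for KO against WT at day 25 (all genes -0.019), -0.17 at day 30 (all genes -0.0034), -0.24 for OE against WT at day 25 (all genes 0.0087) and -0.17 at day 30 (all genes -0.0024). For OE against KO it was -0.05 at day 25 (all genes 0.028) and -0.16 at day 30 (all genes -0.0095).

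Among the 9 other core proteins, SDC1, a syndecan, was 162 and 127 in WT, 16 and 78 in KO and 114 and 108 in OE at day 25 (KO against WT -1.98, limma adjusted p = 0.203). HSPG2, the basement membrane proteoglycan perlecan, was 467 and 285 in WT, 109 and 37 in KO and 120 and 102 in OE at day 25 (KO against WT -2.50, limma adjusted p = 0.220). The study, with other software, reported HSPG2 among its significantly lower genes in KO ThOs. SDC2, another syndecan, was lower in both OE groups, at 140 and 194 against 273 and 394 in KO at day 25 and at 178 and 153 against 288 and 394 at day 30 (log2 differences -0.99 and -1.03, limma adjusted p = 0.102 and 0.284, and called over both days as given above). HSPG2 in OE overlapped KO at day 25, while SDC1 in OE lay above both KO libraries (46.9% of all genes did not overlap between OE and KO). For the 10 genes of chain assembly, which include the polymerase subunits EXT1 and EXT2, the fold changes for KO against WT at day 25 ran from -0.70 (XYLT1, which starts the chain) to 0.63. Of the 12 genes of modification, the largest difference in that comparison was NDST3 (-0.99, limma adjusted p = 0.463), an N-deacetylase/N-sulfotransferase.

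**Figure D4:**
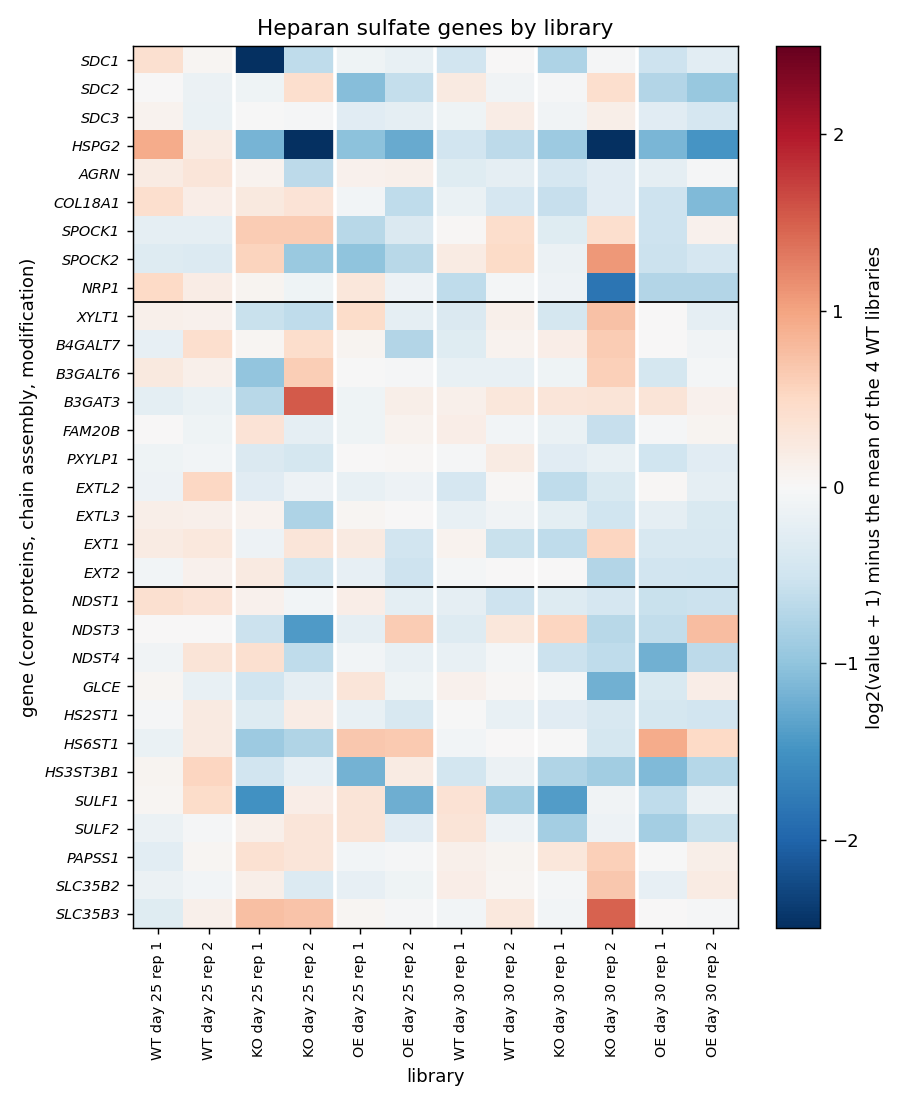
Heparan sulfate genes (rows; core proteins other than glypicans, chain assembly and modification, separated by lines) in the 12 libraries (columns), as log2(value + 1) minus the mean of the 4 WT libraries, with colours that end at 2.5 in both directions. HS6ST1 is lower in both KO libraries of day 25 and higher in all 4 OE libraries, and SDC2 is lower in all 4 OE libraries.

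Proteases and lipases release glypicans from the cell. Of 11 listed for this role, 8 had a row and none was called in limma for KO against WT or OE against KO at either day. PCSK6, a proprotein convertase, was 81 and 66 in WT, 208 and 148 in KO and 30 and 43 in OE at day 25, and 112 and 99, 207 and 378, and 98 and 36 at day 30. OE against KO was -2.26 at day 25 and -2.21 at day 30 (limma adjusted p = 0.0620 and 0.117). GDPD2, a glycerophosphodiester phosphodiesterase that can cleave the GPI anchor, was 116 and 120 in WT, 198 and 166 in KO and 66 and 70 in OE at day 25. At day 30 it was 142 and 108 in WT, 244 and 306 in KO and 109 and 67 in OE (OE against KO -1.40 and -1.66, limma adjusted p = 0.0620 and 0.0597). Neither gene overlapped between OE and KO on either day (46.9% of all genes did not overlap at day 25 and 37.2% at day 30). At an unadjusted p under 0.05 with a 2-fold change, 1 and 2 of the 8 passed for KO against WT at day 25 and day 30 (5.31% and 2.94% of all genes), and 2 and 2 for OE against KO (8.57% and 5.38%). Over both days PCSK6 (-2.24, limma adjusted p = 0.00907) and GDPD2 (-1.53, adjusted p = 0.00612), 2 of the 8, were called for OE against KO (2.22% of all genes), and both calls were lost with only the libraries compared in the fit. Of 27 genes of GPI anchor assembly, 17 had a row and 0 were called in the 6 comparisons between genotypes in limma, and 1 had an unadjusted p under 0.05 with a 2-fold change in each of KO against WT and OE against KO at day 25 (5.31% and 8.57% of all genes).

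The lists for pathways that glypican chains act on were not limited to proteins that bind the chains. The FGF list also holds regulators such as SPRY1, SPRED1 and DUSP6. In these lists, 12 of 28 FGF ligands, receptors and regulators, 24 of 35 Wnt genes, 13 of 16 Hedgehog and BMP surface receptors and 13 of 17 synaptic partners and heparin-binding factors had a row. For OE against KO at day 25, 1 of the first, 1 of the second and 1 of the third were called, all higher in OE (0.126% of all genes), and 0 of the synaptic partners. FGFR3, an FGF receptor, was 58 and 35 in KO and 341 and 352 in OE (log2 difference 2.91, SE 0.340, limma adjusted p = 0.0180). In WT it was 140 and 121 at day 25, below both OE values. RSPO2, a secreted amplifier of Wnt signalling that uses heparan sulfate proteoglycans on the cell surface, was 26 and 28 in KO and 1606 and 678 in OE (5.22, SE 0.674, adjusted p = 0.0180), with 436 and 580 in WT. RGMB, a GPI-anchored BMP co-receptor, was 64 and 84 in KO and 255 and 345 in OE (2.00, SE 0.308, adjusted p = 0.0439), with 157 and 274 in WT. At day 30 FGFR3 was 98 and 54 in KO and 356 and 241 in OE, and RGMB 176 and 176 against 248 and 370. RSPO2 was 112 and 54 in KO and 78 and 460 in OE at day 30, where the 2 groups overlapped. At day 25 all 3 calls were lost with only the libraries compared in the fit and without OE day 25 replicate 1, where 0 of all genes were called. RSPO2 and RGMB were also lost with library weights and without the variance trend, and FGFR3 and RGMB without OE day 25 replicate 2. Over both days, in the comparison of OE with KO that holds the day 25 libraries (2.22% of all genes called), 2 of 12 FGF genes, 7 of 24 Wnt genes (3 higher, 4 lower), 1 of 13 Hedgehog and BMP receptors and 1 of 13 synaptic partners were called. FGFR3 (2.45, limma adjusted p = 0.00152), RSPO2 (3.25, adjusted p = 0.00982), RGMB (1.39, adjusted p = 0.0121) and SLIT1, an axon guidance ligand (2.11, adjusted p = 0.00983), were among the higher. FGF12 (-2.17, adjusted p = 0.0158), WNT1 (-2.48, adjusted p = 0.0124) and the R-spondin receptor LGR4 (-1.80, adjusted p = 0.0166) were among the lower. With only the libraries compared in the fit, 10 of these 11 calls were lost and that of FGFR3 was not, and WNT1, LGR4, FGF12, RGMB and SLIT1 each lost the call without OE day 30 replicate 2. For OE against WT over both days 2 FGF genes were called (0.158% of all genes), FGFR3 (1.67, limma adjusted p = 0.0288) and the FGF antagonist SPRY1 (-1.70, adjusted p = 0.0344). In the other 5 single-day comparisons between genotypes 0 genes of these lists were called in limma, while 2 to 5 of 12, 3 to 8 of 24, 0 to 1 of 13 and 0 to 3 of 13 passed an unadjusted p under 0.05 with a 2-fold change (1.44% to 5.38% of all genes). The study itself reported RSPO2 and WNT8B as significantly lower in KO ThOs by RNA-seq. Its methods name other software, a p under 0.05 and at least 2-fold, with an adjusted p for the volcano plot. WNT8B was 169 and 334 in WT and 46 and 51 in KO at day 25.

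The genes whose log2 values were most like those of GPC4 over the 12 libraries were CDC7 (r = 0.91, rho 0.95), ELAPOR2 (0.90, rho 0.95), RSPO2 (0.90, rho 0.86), TLE3 (0.90, rho 0.82) and PIMREG (0.90, rho 0.97). The 12 libraries include those that chose GPC4, so genes that differ between the KO and OE libraries of day 25 can rank high through that choice. CDC7 is a kinase that starts DNA replication, TLE3 a Groucho co-repressor and PIMREG a mitotic protein. CDC7 was 43 and 50 in KO at day 25, 78 and 75 in WT and 82 and 83 in OE. GPC6 was most like CADPS2, a protein of dense-core vesicle release (r = 0.96), LMX1B, a homeobox factor of the roof plate (0.93), and RAB11FIP1, a protein of recycling endosomes (0.93). LMX1B was 134 and 112 in WT, 525 and 388 in KO and 22 and 72 in OE at day 25. Genes most like GPC1 included PRRC2A (0.93) and NAIP (0.90). GPC2 was most like MYT1, a zinc-finger factor of neuronal differentiation (0.94), GPD2 (0.94) and MYO9A (0.92), and GPC3 like EFNB2, an ephrin ligand (0.78), TTYH3 (0.78) and TM9SF4 (0.76).

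The cell type marker lists varied with GPC4 and GPC6 to different degrees. The summed values of 8 proliferation markers were 2372 to 2589 in WT, 1429 to 1626 in KO and 2823 to 3022 in OE at day 25, and 1799 to 2166, 1600 to 2045 and 2725 to 3051 at day 30. For OE against KO at day 25 the median log2 fold change of the 8 was 0.74, and 0 were called. GPC4 had r = 0.86 with the mean log2 value of these markers and GPC6 r = -0.73 over the 12 libraries. The correlations of GPC4 here and below hold the KO and OE libraries of day 25 that chose it. A list that differs between those libraries can correlate with GPC4 through that choice alone. For the roof plate and choroid plexus markers, 11 of 13 listed, the sums were 3235 to 3830 in WT, 4252 to 7584 in KO and 2635 to 5102 in OE at day 25. At day 30 they were 3436 to 5910, 4122 to 5486 and 4898 to 5160. A large share of these sums was TTR, at 541 and 3453 in KO and 3452 and 1081 in OE at day 25. The median log2 fold change of the 11 for OE against KO at day 25 was -1.13 (all genes 0.028). In that comparison 6 of 11 were lower and 1 higher without overlap (46.9% of all genes in either direction). LMX1B and CLDN1 were called lower there (0.274% of all genes called in either direction). Both calls were lost with only the libraries compared, where 0 genes were called, and without OE day 25 replicate 1. For KO against WT at day 25 the median was 1.00 (all genes -0.019), with 6 higher and 1 lower without overlap (40.6% of all genes in either direction). GPC4 had r = -0.79 with the roof plate and choroid plexus markers and GPC6 r = 0.88. The 9 of 13 progenitor markers listed summed to 7878 to 14130 in WT, 3986 to 6457 in KO and 6869 to 9022 in OE at day 25 (r = 0.51 with GPC4 and -0.33 with GPC6), where VIM alone was 9910 in 1 WT library. At day 30 the progenitor sums overlapped, at 6864 to 8138, 5690 to 7834 and 7381 to 7446. The median log2 fold change of the 9 at day 25 was 1.14 for OE against KO and -1.04 for KO against WT. Without overlap, 5 were higher and 1 lower for OE against KO, and 0 higher and 6 lower for KO against WT. In these 2 comparisons 0 of the 9 were called. The neuron marker sums were 8557 to 10434 in WT, 10409 to 12706 in KO and 9872 to 9937 in OE at day 25, and 12563 to 12731, 12046 to 12163 and 8850 to 12531 at day 30. For OE against KO at day 25, 2 of the 12 neuron markers were called lower (0.274% of all genes called in either direction). Their calls were also lost with only the libraries compared. The median of the 12 was -0.23 there and 0.63 for KO against WT at day 25. Without overlap, 1 was higher and 4 lower for OE against KO, and 6 higher and 1 lower for KO against WT. The neuron markers had r = -0.46 with GPC4 and 0.12 with GPC6, and the 4 thalamus markers r = 0.13 and -0.17. Of 10 mesenchyme markers 3 were listed, with sums of 418 to 502 in WT, 504 to 1120 in KO and 194 to 341 in OE at day 25, and COL1A1, COL3A1, DCN and LUM had no row. GPC2 had r = 0.75 with the 4 thalamus markers listed and r = 0.23 with the 12 neuron markers. In pooled organoids, fewer cells of a type and less RNA per cell cannot be told apart, and the part of cell composition in the glypican values was not tested.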

How the data were processed

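RNA of 3 pooled organoids per library was sequenced in 12 libraries. The authors deposited 1 table per library with a normalized expression score for each of 9497 genes, rounded to whole numbers, and the lowest value was 11 in every table. The submitters' processing notes name bcl2fastq, RSEM, Bowtie2 and hg19 without a role. The positions in the tables are those of GRCh38, and 9386 symbols matched RefSeq GRCh38.p14. Sequencing depth is unknown, no count model was used, and precision is limited by 2 libraries per group. Groups were taken from the labels. The 9 ATAC-seq samples and the 2 of CUT&Tag, 11 in all, were not used here.

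Values were analysed as log2(value + 1), a scale that understates changes of low genes, in limma 3.58.1 under R 4.3.3. One model with 6 group means was fitted to all 12 libraries (variance trend, 6 residual degrees of freedom), with a value of at least 1 required in at least 2 libraries, which removed 0 genes. A gene was called at a Benjamini-Hochberg adjusted p under 0.05 over all 9497 genes and at least 2-fold. The fit was tested on simulated data. Differences over both days were tested by two-sided exact permutation, in which labels were exchanged across the days without holding day fixed. The members and gene lists were chosen with earlier results of these data known. Named were the 5 members, their nearest listed neighbours, JUN, list genes that were called or, without a call, those with the largest change among genes without overlap, the 5 genes most like GPC4 by Pearson r and 3 for each other member, of which 1 is not reported here. CDC7, LMX1B, TTR and VIM were given values, and CLDN1, XYLT1, EXT1 and EXT2 named, after their values were seen. The alternatives were pseudocounts of 0.1 and 5, other filters, quantile and median scaling, a replicate block, library weights, no variance trend, only the libraries compared, other call thresholds and leaving out each library.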

Additional observations from a re-analysis of the deposited data

Results flagged for a closer look

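GPC4 differed in opposite directions between day 25 and day 30 in the genotypes, with no overlap between the days in any of them. The shares of all genes without overlap between the days were 41.3% in WT, 29.3% in KO and 37.7% in OE. The log2 difference of GPC4 was -0.82 in WT, 0.87 in the libraries labelled KO and -1.17 in OE. The difference between the genotypes was not tested, because the KO and OE libraries of day 25 chose the gene. GPC4 was chosen as higher in OE than in KO at day 25, so a rise in KO and a fall in OE can follow from that choice alone.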

How the results depend on the processing

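Pseudocount, filter and scaling changed no count of glypicans by more than 1.5 times. The same held for heparan sulfate genes in the single-day comparisons between genotypes. Over both days, a pseudocount of 5 took SDC2 (-0.99 on the log2 scale) out of the heparan sulfate genes called for OE against KO. All libraries already shared their lowest value, median and highest value, so scaling had little to change. The single glypican called for OE against KO at day 25 (GPC4), a call that the choice fixed, became 0 with library weights and 0 with only the libraries compared. That call was also lost without OE day 25 replicate 1. For OE against KO over both days 2 glypicans were called (2.22% of all genes), which became 1 with the replicate block, 1 with library weights, 1 without the variance trend, 0 with only the libraries compared and 1 to 2 on leaving out 1 library. At an unadjusted p under 0.05 with a 2-fold change, GPC6 passed for KO against WT at day 25 (5.31% of all genes). GPC4 was left out there and for day 30 against day 25 in OE, because these comparisons hold the libraries that chose it. Leaving out 1 library gave 0 to 1 glypicans for OE against KO at day 30 and 0 to 1 for the KO and WT libraries of both days, in each case 1 without KO day 30 replicate 1. Without that library 1441 of all genes were called for OE against KO at day 30, against 8 in the full fit.

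The 1 heparan sulfate gene called for OE against KO at day 25 became 0 with the replicate block, 0 with library weights, 0 without the variance trend and 0 with only the libraries compared. The call was also lost without either OE library. At an unadjusted p under 0.05 with a 2-fold change, 3 passed in that comparison (8.57% of all genes). At the same cut 2 passed for KO against WT at day 25 (5.31%) and 1 at day 30 (2.94%). It took 1 for OE against KO at day 30 (5.38%) and 1 for OE against WT at day 25 (1.57%). Leaving out 1 library gave 0 to 1 for KO against WT at day 25 (1 without either KO library), and without KO day 30 replicate 1 the counts were 4 for KO against WT (0 to 4) and 6 for OE against KO (0 to 6) at day 30, where 11.4% and 15.2% of all genes were called. The causes were not tested.

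Leaving out 1 library turned the sign of log2 fold changes of members that were not called. For KO against WT at day 25 GPC2 ranged from -0.29 to 0.54, and at day 30 GPC4 from -0.41 to 0.14, GPC1 from -0.51 to 0.031 and GPC3 from -0.39 to 0.087. For OE against KO at day 30 GPC1 ranged from -0.0076 to 0.54. For OE against WT at day 25 GPC1 ranged from -0.024 to 0.29 and GPC3 from -1.14 to 0.75, and at day 30 GPC6 from -0.97 to 0.28, GPC1 from -0.023 to 0.070, GPC2 from -0.12 to 0.50 and GPC3 from -0.12 to 0.38. Between the days in WT GPC6 ranged from -0.38 to 0.46 and GPC2 from -0.11 to 0.51. In KO GPC6 ranged from -0.86 to 0.044, GPC1 from -0.44 to 0.10, GPC2 from -0.98 to 0.0019 and GPC3 from -0.38 to 0.10, and in OE GPC6 from -0.064 to 1.18 and GPC3 from -0.97 to 0.91. Over both days GPC2 ranged from -0.46 to 0.025 for KO against WT, and for OE against WT GPC1 from -0.00034 to 0.15 and GPC3 from -0.50 to 0.44.

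The replicate numbers are shared by the groups, and the labels do not say what they stand for. Deviations of same-numbered libraries correlated from -0.214 to 0.262 between groups, and the main fit did not pair the libraries. With 2 libraries per group these correlations cannot decide whether some groups shared a batch. With the block, all genes called for OE against KO at day 25 went from 26 to 8. Of the 5 genes most like GPC4, 3 were also among the first 5 by Spearman rho, and 0 to 4 on leaving out 1 library (0 without KO day 30 replicate 2). With 2 libraries per group the intervals of most members span both directions, so differences of that size were not detectable here.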
